A study of Mus musculus with 6 samples.

Results

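The weakest accessible regions of the adult mouse hypothalamus were examined here: all regions whose mean over the 6 ATAC-seq libraries lay under 1 CPM (counts scaled to library size). There were 77177 of them among 233801 regions, or 33.01%. They were chosen by their measured level, which is therefore given as a description only. The rule did not use genotype or sex, so comparisons between mice were tested.

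The series concerns chromatin after loss of MYT1L, a neuronal transcription factor with zinc fingers. It holds 3 wild-type (WT) mice and 3 mice with the genotype label Het, all aged 60 to 70 days. Each genotype holds 2 females and 1 male. The females are WT replicates 5 and 33 and Het replicates 19 and 48, and the males are WT replicate 56 and Het replicate 42. The sources used here do not give the allele, the strain or the way the regions were called. Regions carry a running number (all_hpt_peak_1 and so on) and no genome position, so no gene, marker of the tissue or sequence could be set beside a region.

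In ATAC-seq the Tn5 transposase cuts DNA that is not covered by nucleosomes, and the number of fragments from a region is read as its accessibility. Active promoters are open in most cells of a tissue and give strong signals. Enhancers are often open in particular cell types, and the hypothalamus is a mixture of many types of neurons, glia and vascular cells. In bulk tissue, a region that is open in few cells cannot be told apart from one that is slightly open in many.

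The weak regions were numerous but held little of the signal. Their mean level ran from 0.165 to just under 1 CPM, with a median of 0.607 CPM, against a median of 3.04 CPM in the other 156624 regions. The deposited values move in steps that stand for 1 count after the authors' adjustment for unwanted variation (an adjusted count), and 1 CPM equals about 25 of these. A typical weak region therefore rested on a mean of 15.3 adjusted counts per library, and those between the quartiles on 11.8 to 19.5. The share of all CPM that fell in weak regions was 4.80%, 4.81% and 5.01% in WT replicates 5, 33 and 56. Among the Het mice, replicates 19, 42 and 48 had 4.71%, 4.73% and 4.81%. The weak regions, 33.01% of the total by number, thus took 4.71% to 5.01% of the signal in each mouse.

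Most of these regions were weak in every mouse. In 51820 of them, or 67.1%, all 6 libraries lay under 1 CPM. A library at 1 CPM or more occurred in the other 25357, and 12 regions had a library at 2 CPM or more. The 2 highest single values were 2.71 CPM in Het replicate 42, in all_hpt_peak_187361, and 2.54 CPM in WT replicate 56, in all_hpt_peak_36146. The other 5 libraries of all_hpt_peak_36146 held 0.515 to 0.961 CPM, so its place near the limit came from WT replicate 56. In all_hpt_peak_187361 the levels were 1.19, 0.240 and 0.951 CPM in WT replicates 5, 33 and 56, and 0.160 and 0.159 CPM in Het replicates 19 and 48.

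At the limit itself the level was continuous. The 2 regions just inside it, all_hpt_peak_182675 and all_hpt_peak_98686, had means of 0.999958 and 0.999961 CPM. The 2 just outside, all_hpt_peak_59482 and all_hpt_peak_28623, had means of 1.00001 and 1.00002 CPM. At the other end, the lowest mean belonged to all_hpt_peak_127220, with 5, 3 and 4 adjusted counts in the WT libraries and 3, 5 and 5 in the Het libraries. The next, all_hpt_peak_104844, had 3, 2 and 1 in WT and 6, 5 and 8 in Het. Only 216 regions lay under 0.25 CPM, against 23902 at 0.25 to 0.5 CPM. No region in the table had a total under 25 adjusted counts over the 6 libraries, or fewer than 5 in its highest library.

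A count of 0 was rare even among the weak regions. At least 1 adjusted count was present in all 6 libraries in 77020 of them, or 99.8%. Of the other 157, 155 were at 0 in 1 library and 2 were at 0 in 2 libraries. No region at 1 CPM or more was at 0 anywhere. The zeros were unequal between mice: 8, 1 and 90 weak regions were at 0 in WT replicates 5, 33 and 56, and 23, 31 and 6 in Het replicates 19, 42 and 48. Het libraries had a mean of 20 ± 12.8 zeros and WT libraries 33 ± 49.5 (SD, n = 3; two-sided exact permutation p = 0.9), and without WT replicate 56 the difference of Het minus WT turned from -13 to 15.5 regions. Both males had more zeros than any female, with a mean of 60.5 against 9.5 (exact permutation p = 0.133, the smallest that 2 against 4 can give, and 0.532 after adjustment over 8 measures).

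The values of the other mice at these zeros followed a pattern. In the 90 regions at 0 in WT replicate 56, the median adjusted count was 15 in WT replicate 5 and 16 in Het replicate 19, but 5 in WT replicate 33, and 7 and 10 in Het replicates 42 and 48. WT replicate 33 was under 10 counts in 85 of the 90. In the 31 regions at 0 in Het replicate 42, WT replicate 33 was the highest library in 25. In the 23 at 0 in Het replicate 19, WT replicate 56 was the highest in 18. A 0 in a mouse thus came with particular values in others, across genotypes. The deposited values hold almost nothing in 1 direction across the mice, given below with its weights. That ties the mice to each other, so the pattern is not a separate observation of each mouse. All values here are adjusted counts, and whether the reads behind them show the same was not tested.

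The following values describe the variation between mice of a genotype. With 6 libraries in 2 genotypes, variation within genotypes has 4 directions. In weak regions 3 of them held 37.9%, 32.7% and 29% of that variance on the log2(CPM + 0.5) scale, and the last held 0.505%, against 0.0577% in the other regions. The deposited values thus hold almost nothing in this direction. That it was removed by the authors' adjustment is an assumption here, as the number of factors they removed is not stated in the labels. The direction weighted WT replicate 33 by 0.68, Het replicate 19 by -0.43, WT replicate 56 by -0.37, Het replicate 42 by 0.34, WT replicate 5 by -0.31 and Het replicate 48 by 0.08. WT replicate 33 was seldom extreme: it was the single lowest library in 5.37% of weak regions and the single highest in 10.5%. For the other libraries these shares were 16.4% to 21.7% for the lowest and 14.9% to 22.2% for the highest. If this direction was removed, tests that take the deposited values as they are count 1 residual degree of freedom too many. Fits that allow for it are given beside the fits of genotype and of sex. No such allowance was made for the interaction of both, the exact permutation tests or the counts of regions where groups do not overlap.

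Agreement between mice was low across the weak regions. Pearson's r over these regions ran from 0.303 to 0.633 between mice that share a genotype and from 0.225 to 0.676 between WT and Het mice. The highest value joined WT replicate 33 with Het replicate 19, and the lowest WT replicate 56 with Het replicate 19. In the nearly empty direction the first pair had weights of opposite sign (0.68 and -0.43). The second pair had weights of the same sign (-0.37 and -0.43). As that direction ties the mice to each other, the order of these values is not read as likeness between particular mice. In regions at 1 to 2 CPM, r ran from 0.165 to 0.640, and over all regions at 1 CPM or more from 0.960 to 0.985. The points of these coefficients are regions that share libraries, depth and adjustment, and r is lower over a narrow range of levels, so they describe the libraries only.

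The first comparison was of genotype: are weak regions more or less open in Het mice? No weak region passed. In a limma fit of log2(CPM + 0.5) to all 233801 regions, with Benjamini-Hochberg adjustment, 0 weak regions were called higher and 0 lower in Het (threshold 0.05), their smallest adjusted p being 0.359. Over all regions 0% were called higher and 0% lower. At an unadjusted p under 0.05 there were 7569 weak regions, or 9.81%, split into 3188 with a higher and 4381 with a lower mean in Het, against 10.8% over all regions (5.32% higher and 5.45% lower). The share changed with the library left out. It was 5.09% without WT replicate 33, which has the largest weight in the nearly empty direction. Leaving out WT replicate 56, Het replicate 19 or Het replicate 42 gave 7.84%, 7.8% and 8.09%. Without WT replicate 5 or Het replicate 48 the share was 11.7% and 12%.

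Fits that allow for the nearly empty direction called 3 weak regions. With that direction as a covariate, 1 weak region was higher and 2 were lower in Het (limma adjusted p under 0.05), while 0.0317% of all regions were called higher and 0.00941% lower. The same 3 passed when the residual degrees of freedom were lowered by 1, where 0.0351% of all regions were called higher and 0.0107% lower. These 2 fits are nearly the same test. Their prior degrees of freedom, the weight limma gives to the spread of other regions, were 76.2 and 91.3. The fit without the covariate had 7.36. A region's own variance thus had little weight in the 3 calls. In the covariate fit 5.53% of weak regions had an unadjusted p under 0.05, against 6.31% of all regions. Of the 96 regions called anywhere in the table by this fit, 3 were weak, although weak regions made up 33.01% of those tested. A log2 change had a median SE of 0.23 in weak regions and 0.17 in the others. Its part in the number of calls was not tested.

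The region called higher was all_hpt_peak_72167. Its levels were 0.278, 0.280 and 0.238 CPM in WT replicates 5, 33 and 56, and 1.20, 1.14 and 0.872 CPM in Het replicates 19, 42 and 48. All Het mice lay above all WT mice, by adjusted counts of 22 to 30 against 6 to 7. The Het mean of 1.07 ± 0.18 CPM was 4.04-fold the WT mean of 0.265 ± 0.024 CPM (SD, n = 3). On the log2(CPM + 0.5) scale the change was 1.03 ± 0.15 (SE; limma adjusted p = 0.359) without the covariate and 1.03 ± 0.23 (limma adjusted p = 0.0437) with it. At such low levels this scale understates a change.

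The region with the smallest p was all_hpt_peak_78463, which was lower in Het. It had 1.23, 1.08 and 1.43 CPM in WT replicates 5, 33 and 56, and 0.200, 0.275 and 0.357 CPM in Het replicates 19, 42 and 48. The genotypes did not overlap, with 27 to 36 adjusted counts in WT and 5 to 9 in Het. The mean was 4.49-fold higher in WT, at 1.25 ± 0.17 CPM against 0.277 ± 0.078 CPM in Het (SD, n = 3). The log2 change was -1.17 ± 0.16 (SE; limma adjusted p = 0.359), and -1.17 ± 0.23 with the covariate (limma adjusted p = 0.007). It was also the 1 weak region called in the fit without the covariate when WT replicate 33 was left out (limma adjusted p = 0.0115).

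The third call, all_hpt_peak_102358, lay close to the limit at a mean of 0.975 CPM. It had 0.991, 1.84 and 1.63 CPM in WT replicates 5, 33 and 56, and 0.640, 0.314 and 0.436 CPM in Het replicates 19, 42 and 48. WT replicate 5 was the nearest to the Het mice. Its log2 change was -1.03 ± 0.20 (SE; limma adjusted p = 0.359) without the covariate and -1.03 ± 0.23 (limma adjusted p = 0.048) with it.

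A further region in each direction had a small p and genotypes that did not overlap, without passing any of these fits. Region all_hpt_peak_135393 had 0.357, 0.400 and 0.357 CPM in the WT libraries and 1.28, 1.06 and 1.11 CPM in the Het libraries, in the order above. Its log2 change was 0.92 ± 0.15 (SE; limma adjusted p = 0.359, or 0.133 with the covariate). Region all_hpt_peak_34258 had 0.833, 0.921 and 0.912 CPM in WT and 0.280, 0.236 and 0.198 CPM in Het. Its log2 change was -0.91 ± 0.15 (SE; limma adjusted p = 0.359, or 0.154 with the covariate). The WT values of both regions lay within 2 adjusted counts of each other, but regions picked for a small p have small spreads by choice.

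**Figure D1:**
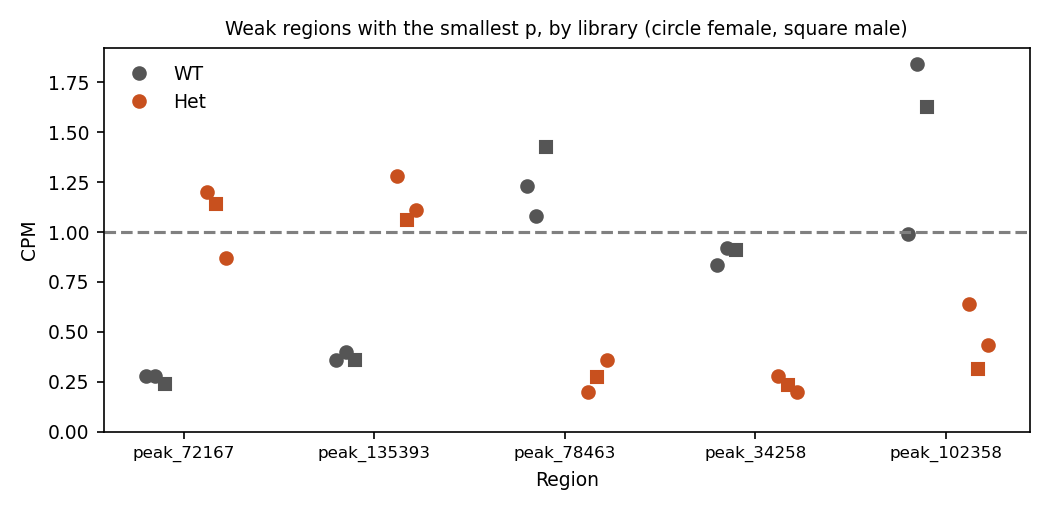
CPM of the 5 weak regions named for the comparison of Het with WT, for each library (grey WT, orange Het; circles females, squares males). The vertical axis is linear from 0 and the dashed line marks 1 CPM. In all 5 the genotypes do not overlap, and the Het values of all_hpt_peak_78463 lie between 0.200 and 0.357 CPM.

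The 3 calls changed with the libraries included, while the size of the change mostly did not. With the covariate, no weak region was called when WT replicate 56 or Het replicate 48 was left out. Without WT replicate 33, or without Het replicate 42, 0 were higher and 1 was lower. Without Het replicate 19, 2 were higher and 0 lower, and without WT replicate 5, 6 were higher and 2 lower. The log2 change stayed between 0.95 and 1.13 in all_hpt_peak_72167, between -1.31 and -1.05 in all_hpt_peak_78463, and between -1.25 and -0.68 in all_hpt_peak_102358. Region all_hpt_peak_72167 had a limma adjusted p of 0.0839 to 0.475 over these 6 fits and passed in none. Region all_hpt_peak_78463 passed without WT replicate 5 (limma adjusted p = 0.0215) and all_hpt_peak_102358 also did (limma adjusted p = 0.00815), and neither passed in the other 5. These fits have 1 residual degree of freedom fewer, and with a library missing the covariate is no longer balanced between the genotypes. They kept the weights estimated from all 6 libraries, and the direction was not estimated again. The loss of calls therefore cannot be told apart from these changes of the fit.

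Changes in the weak regions were small for most of them on the fitted scale and larger as plain ratios. On the log2(CPM + 0.5) scale 1044 weak regions differed by more than 1.5-fold between the genotype means and 4 by more than 2-fold, 2 in each direction. Over all regions, of which 33.01% were weak, 1773 (0.758%) lay beyond 1.5-fold and 9 beyond 2-fold. As a ratio of mean CPM, 1092 weak regions were more than 2-fold higher and 1649 more than 2-fold lower in Het. That is 3.55% of weak regions against 1.22% of all regions and 0.0747% of those at 1 CPM or more. This share grew towards the lowest levels, from 0.912% at 0.75 to 1 CPM to 6.9% at 0.25 to 0.5 CPM, alongside the spread between mice given below.

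More weak regions had a lower than a higher mean in Het, except after quantile normalization, where the split was even. Of the 77177, 35601 had a higher mean in Het, or 46.13%, against 48.6% of all regions. With equal library totals the share was 45.92%. It was 50.05% after quantile normalization, which gives all libraries the same distribution. That step evens out a lean shared by regions of a level, so it cannot decide where the lean came from. The median log2 change was -0.02 in weak regions and -0.01 over all regions. By level, the share higher in Het was 44.67% at 0.25 to 0.5 CPM, 46.17% at 0.5 to 0.75 CPM and 47.58% at 0.75 to 1 CPM. Above the limit it went on from 48% at 1 to 2 CPM to 56.8% at 16 to 32 CPM. The 216 regions under 0.25 CPM did not follow this order, with 54.17% higher in Het.

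**Figure D2:**
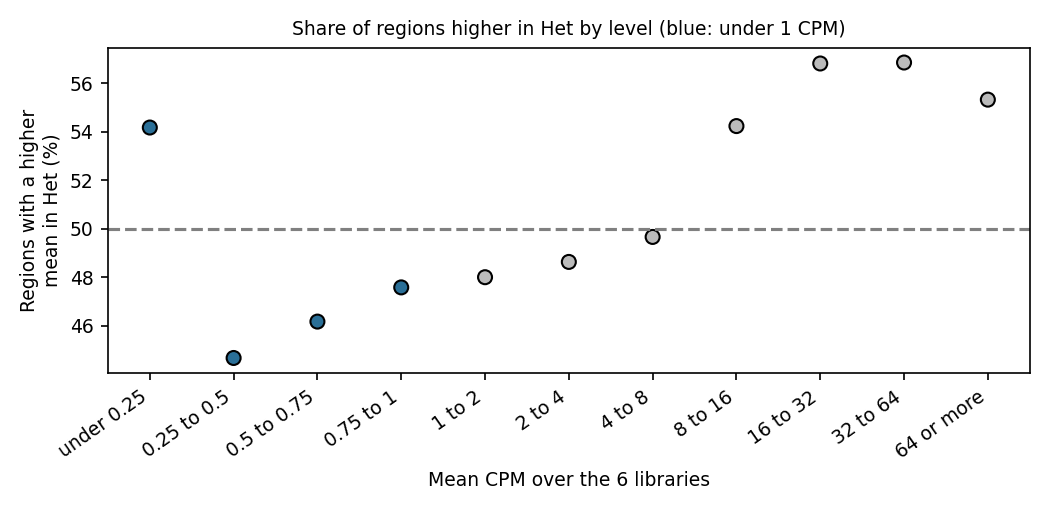
Percent of regions with a higher mean in Het than in WT on the deposited scaling, by class of mean CPM over the 6 libraries (blue, under 1 CPM; grey, 1 CPM or more; dashed line, 50%). Points climb from 44.67% at 0.25 to 0.5 CPM to 56.8% at 16 to 32 CPM. The overall 46.13% of the weak regions became 50.05% after quantile normalization and 45.92% with equal library totals.

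The mean level of the weak regions lay slightly lower in each Het mouse than in each WT mouse. The mean log2(CPM + 0.5) was 0.130, 0.135 and 0.152 in WT replicates 5, 33 and 56, and 0.117, 0.109 and 0.127 in Het replicates 19, 42 and 48. The nearest mice of the genotypes, WT replicate 5 and Het replicate 48, differed by less than the range within either genotype. The difference of the means was -0.0214 (two-sided exact permutation p = 0.1, the smallest that 3 against 3 can give, and 0.267 after Benjamini-Hochberg adjustment over the 8 measures compared in this way, whose adjusted values ran from 0.267 to 1). Set against the regions at 1 CPM or more in the same library, the weak regions stood at -1.942 ± 0.005 in Het libraries and at -1.921 ± 0.011 in WT libraries (SD, n = 3; exact permutation p = 0.1). Set against the regions at 1 to 2 CPM, these distances were -0.805 ± 0.003 and -0.792 ± 0.002 (exact permutation p = 0.1). Of all CPM, 4.75% ± 0.05 fell in weak regions in Het mice and 4.87% ± 0.12 in WT mice (SD, n = 3), with WT replicates 5 and 33 just below Het replicate 48 (exact permutation p = 0.3). The difference of -0.119 percentage points became -0.05 without WT replicate 56.

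**Figure D3:**
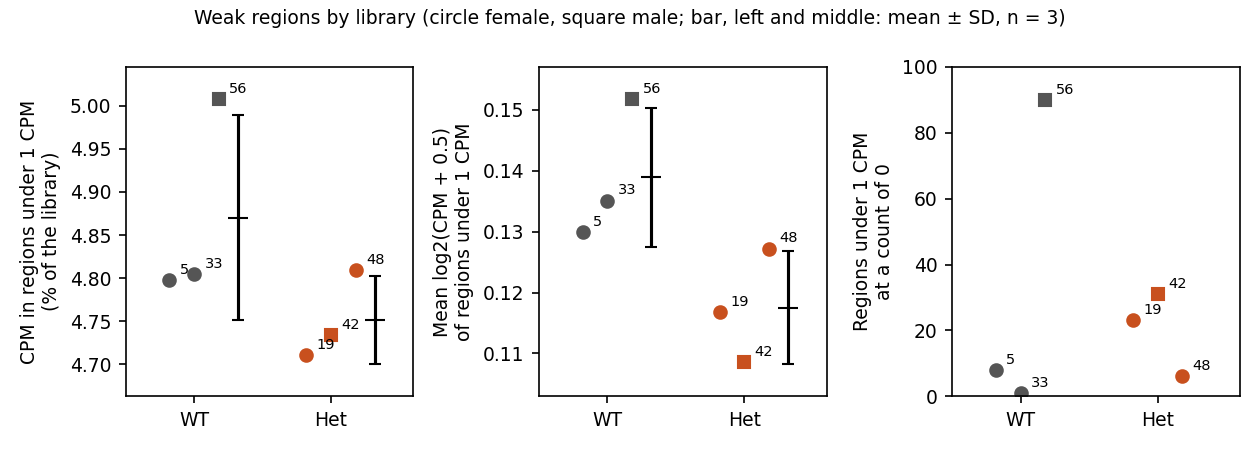
Values of the weak regions in each library by genotype (points numbered by replicate; circles females, squares males; black bars in the left and middle panels, mean ± SD, n = 3): percent of CPM in weak regions, their mean log2(CPM + 0.5), and how many stand at a count of 0. The first 2 axes do not start at 0. WT replicate 56 is highest in all 3 panels, at 5.01%, 0.152 and 90 regions.

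The genotypes were fully apart in 11734 weak regions, or 15.2%, against 16.2% of all regions. All 3 Het values lay above all 3 WT values in 5076, or 6.58% (7.85% of all regions), and below them in 6658, or 8.63% (8.3% of all regions). The lean towards lower values was found at each level from 0.25 to 1 CPM, where 6.19% to 7.24% were above and 8.32% to 9.06% below. It was not limited to weak regions: 7.73% were above and 8.44% below at 1 to 2 CPM, and 8.46% and 8.77% at 2 to 4 CPM. At 4 to 8 CPM the order turned, with 9.14% above and 8.36% below. These shares use the deposited scaling, whose effect on the balance of higher and lower is given above. They make no allowance for the nearly empty direction. If it was removed, the spread within genotypes is too small and the genotypes lie apart too often.

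The spread between mice was large relative to the level. The coefficient of variation of the adjusted counts within genotypes had a median of 27.6% in weak regions and 12.5% in the others, and it fell with level, from 33.2% at 0.25 to 0.5 CPM to 23.3% at 0.75 to 1 CPM. Between the lowest and the highest of the 6 mice, a weak region differed 2.22-fold in the median and other regions 1.44-fold. The variance of the adjusted counts over their mean had a median of 1.15 within genotypes, or 1.54 when 3 residual degrees of freedom are counted. The median was 0.841 in WT and 1.09 in Het when each genotype was taken alone. Pure counting of independent fragments would give this ratio an average of 1 but a lower median. These medians therefore cannot be set against 1. The variance summed over weak regions was 1.499 times their summed mean within genotypes, without the count of 3 residual degrees of freedom. As these are adjusted counts, this value was not tested against the counting of fragments. Over levels the median within genotypes rose from 1.12 at 0.25 to 0.5 CPM through 1.18 at 0.75 to 1 CPM. It reached 2.38 at 64 CPM or more. Weak regions thus varied more than strong ones by the coefficient of variation and less by this ratio. The 216 regions under 0.25 CPM were higher again at 1.68, with a median 5-fold range between mice.

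**Figure D4:**
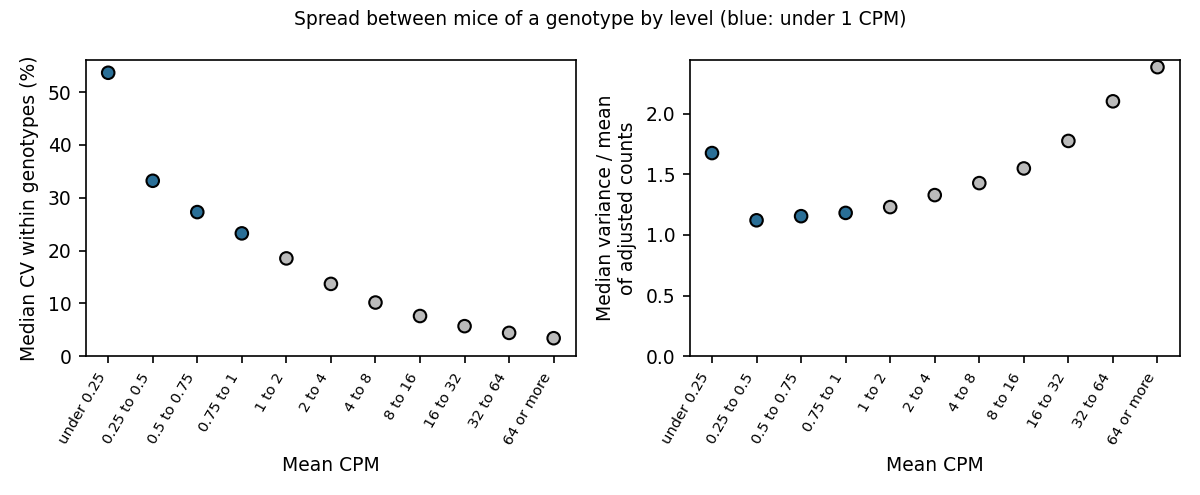
Spread between mice of a genotype by class of mean CPM (blue, under 1 CPM; grey, 1 CPM or more): left, the median coefficient of variation in percent; right, the median variance over mean of the adjusted counts. The first falls from 53.7% under 0.25 CPM to 3.39% at 64 CPM or more, and the second rises from 1.12 at 0.25 to 0.5 CPM to 2.38.

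The second comparison set the 2 males against the 4 females with genotype in the model. No weak region passed: limma called 0 of them higher and 0 lower in males (smallest adjusted p = 0.288), and over all regions 0% higher and 0% lower. At an unadjusted p under 0.05 there were 10943, or 14.2%, against 13.6% of all regions. With the nearly empty direction as a covariate these shares were 6.45% and 6.14%. In weak regions 50.9% had a higher mean in males, against 49.4% of all regions. Both males lay above all females in 7252 weak regions, or 9.4% (9.05% of all regions), and below them in 8114, or 10.5% (10.4% of all regions).

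The regions with the smallest p among those whose sexes did not overlap were close to each other in pattern. Choosing them in this way all but fixed that likeness and their small SE. Region all_hpt_peak_32856 had 1.63 and 1.30 CPM in the WT and the Het male, and 0.595, 0.560, 0.400 and 0.515 CPM in the females (WT replicates 5 and 33, Het replicates 19 and 48). Region all_hpt_peak_146696 had 1.51 and 1.26 CPM in the males and 0.400 to 0.634 CPM in the females. On the other side, all_hpt_peak_82637 had 0.159 and 0.196 CPM in the males and 0.720 to 0.872 CPM in the females, and all_hpt_peak_190623 had 0.159 and 0.393 CPM against 0.640 to 1.28 CPM. The log2 changes of the 4 regions were 0.94, 0.87, -0.94 and -0.92, each with an SE of 0.12 and a limma adjusted p of 0.288. None passed with the nearly empty direction as a covariate (limma adjusted p from 0.215 to 0.334).

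With the covariate, 1 weak region was called higher and 1 lower in males (limma adjusted p under 0.05), against 0.00428% and 0.0167% of all regions. The prior degrees of freedom were 81.6 in this fit, so a region's own variance had little weight in the calls. The first was all_hpt_peak_187361, named above for its 2.71 CPM in the Het male (limma adjusted p = 0.0225). The WT male, at 0.951 CPM, lay below a WT female at 1.19 CPM, so the sexes overlapped and the call rested on the Het male. The second was all_hpt_peak_222631, at 0.159 and 0.314 CPM in the WT and the Het male and 0.841 to 1.28 CPM in the females (limma adjusted p = 0.046). With the residual degrees of freedom lowered by 1, the counts were 1 higher and 5 lower (0.0145% and 0.0299% of all regions). That fit gave no weight to a region's own variance, as its prior degrees of freedom were infinite. Regions called lower there included all_hpt_peak_141782, with 45, 9 and 0 adjusted counts in WT replicates 5, 33 and 56 and 28, 12 and 28 in Het replicates 19, 42 and 48, and all_hpt_peak_162291, with 21, 53 and 14 in WT and 22, 1 and 25 in Het. In the first, WT replicate 33, a female, lay below the Het male. In the second the males lay below all females, and WT replicate 33 stood far above the rest.

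The change between Het and WT was not found to differ between the sexes in any weak region. The limma interaction of genotype and sex called 0 weak regions and 0% of all regions, and 1870, or 2.42%, had an unadjusted p under 0.05, against 2.27% of all regions. With 1 male per genotype this fit has 2 residual degrees of freedom, and its median SE in weak regions was 0.36. No allowance for the nearly empty direction was made in it, so its degrees of freedom are too many if that direction was removed.

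The running number is the only other property of a region in the data, and weak regions were not spread evenly along it. After a weak region, the region with the next number was weak in 40.49% of cases, against 29.26% after any other region and 33.01% over all. The next number had a median level of 1.343 CPM after a weak region and 2.002 CPM after another. A neighbour at 16 CPM or more stood beside 4.67% of weak regions and 11.2% of the others. In blocks of 1000 numbers the share of weak regions had a median of 33.7%, from 12.9% in numbers 170001 to 171000 to 47.8% in numbers 76001 to 77000. The sources used here do not say what the order of the numbers stands for.

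**Figure D5:**
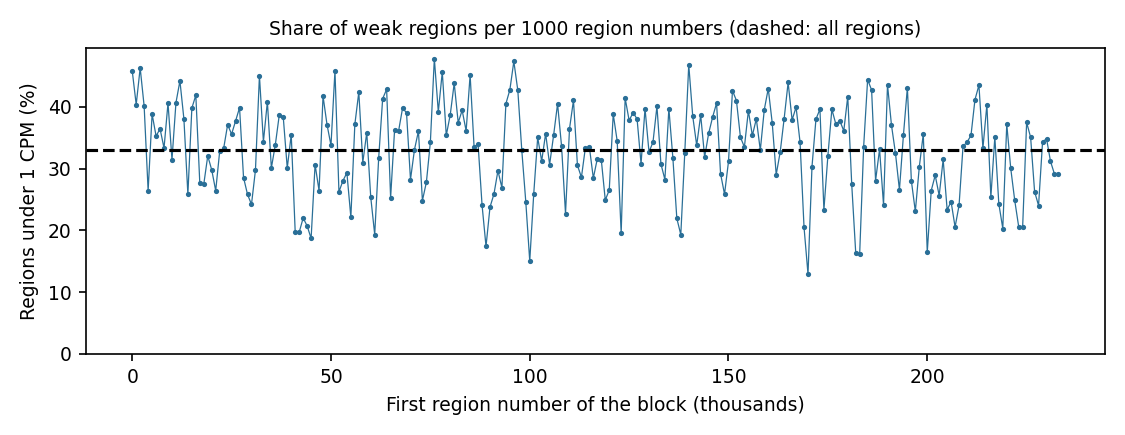
Percent of regions under 1 CPM in 234 blocks of 1000 consecutive region numbers, by the first number of the block (dashed line, 33.01% over all regions). Blocks run from 12.9% to 47.8%, and 90% of them lie between 20.1% and 43.9%.

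Most weak regions stood alone or in short runs of consecutive numbers. There were 46106 such runs, of which 28692 were single regions, holding 37.18% of the weak regions. Runs of 5 or more held 9206, or 11.9%, and 55 runs had 10 or more. Of the numbers up to 234756, 955 had no row, and the regions next to such a number were weak in 845 of 1835 cases, or 46.05%, against 32.91% elsewhere. The direction of the Het minus WT change was shared by 53.35% of the 31071 pairs of consecutive weak regions. Pearson's r of the change was 0.089 over these pairs and 0.042 over the 110445 pairs of consecutive regions at 1 CPM or more. The pairs share libraries and adjustment, so these values are a description.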

How the data were processed

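ATAC-seq was measured in 6 hypothalamus samples, 3 WT and 3 Het, matched to data columns through the sample descriptions. The authors deposited log2 CPM values after RUVr, a removal of unwanted variation estimated from model residuals, per the name of the data table. The submitters' processing notes name the build mm10 and, for both assays of the study, Bowtie2, HTSeq, STAR and Trimmomatic. No source used here gives the peak caller, pooling or any shift for Tn5. The lowest value, -3.65, stands for a count of 0 and was removed as a prior of 0.0794 CPM, after which 100% of the values of the weak regions were whole multiples of a step per library (tolerance 1e-06). Libraries held 24993698 to 25367277 adjusted counts. As the read depth before adjustment is unknown, counting intervals are left out.

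All regions were fitted without a filter in limma 3.58.1 (R 4.3.3) on log2(CPM + 0.5) with an intensity trend, genotype (or genotype and sex) as terms and two-sided tests. Direction weights came from a singular value decomposition of the residuals. Means over libraries were compared by exact permutation (scipy 1.17.1). The series' design text calls the samples biological replicates, and genotypes share no replicate numbers. Regions were named by a rule: the 2 smallest p per direction among groups that do not overlap, the lowest 2, the 2 nearest the limit on each side, the 2 with the largest single value, and up to 2 per direction called by another fit. The fits were tested on simulated data. The members, tests and classes were chosen with earlier results of these data known.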

Additional observations from a re-analysis of the deposited data

How the results depend on the processing

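No paired analysis was possible because the genotypes share no replicate numbers. Of 20 alternatives, 18 left the count of weak regions higher in Het at 0 and 17 the count lower at 0 (smallest limma adjusted p 0.00536 to 0.57). The nearly empty direction as a covariate and the lowered degrees of freedom each called 1 region higher and 2 lower. With 1 library left out, 0 were higher and 0 to 1 lower, and in the fit with the covariate 0 to 6 were higher and 0 to 2 lower, where leaving out libraries in that fit was chosen after seeing the data. The percent with a higher mean in Het, 46.13, was 50.05 after quantile normalization and 45.92 with equal library totals. It was 48.13 in females alone, 44.76 under 0.5 CPM and 45.64 to 47.27 without 1 library. By sex, 0 higher and 0 lower became 1 and 1 with the covariate and 1 and 5 with lowered degrees of freedom. The difference in zeros, -13 regions, ran from -29 to 15.5 with 1 library left out, and was above 0 only without WT replicate 56. The median variance over mean, 1.15, was 1.54 with 3 degrees of freedom. The cause was not tested for quantile normalization or for libraries left out. The 4 regions named by smallest p kept their sign, which their choice all but fixed. The median SE with the covariate was 0.23 in weak regions and 0.09 at 16 to 32 CPM, and the part of depth in this was not tested.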

Other observations

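The longest run of consecutive weak regions held 28 numbers, 171274 to 171301, just after the block with the lowest share of weak regions. It was singled out after its values were seen. The mean levels of these regions ran from 0.358 to 0.973 CPM with a median of 0.474 CPM. The number before the run had 1.12 CPM and the number after it 4.11 CPM. Within the run the median level was 0.515, 0.58 and 0.674 CPM in WT replicates 5, 33 and 56, and 0.56, 0.471 and 0.416 CPM in Het replicates 19, 42 and 48. The mean was lower in Het in 21 of the 28 regions, with a median log2 change of -0.18, and WT replicate 56 was the highest library in 12. Het replicate 19 lay above WT replicate 5, so the genotypes overlapped in these medians.

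Of the last 25 region numbers, 8 were weak, which is near the share of 33.01% over all regions. WT replicate 5 was the highest library in 7 of the 8 and WT replicate 56 the lowest in 5. Among all weak regions, WT replicate 5 was the single highest in 16% and WT replicate 56 the single lowest in 17.9%. These shares leave out ties, which the counts over the 8 regions may include. The counts and the shares are therefore not set against each other. This window was not among the planned comparisons.

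Zeros in 2 libraries occurred in 2 weak regions. Region all_hpt_peak_157376 had 4, 0 and 0 adjusted counts in WT replicates 5, 33 and 56 and 6, 14 and 9 in Het replicates 19, 42 and 48. Region all_hpt_peak_234719 had 2, 4 and 11 in WT and 0, 0 and 8 in Het.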
